A study of Homo sapiens with 2 samples.

Results

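The regions described here are the 3068 LDB1 peaks that lay deep inside very long genes, of 52765 peaks on chromosomes 1 to 22 and X (5.81%) and 53742 in the deposited list. A peak was a member when its midpoint lay in a protein-coding gene of 300 kb or longer and more than 20 kb from any protein-coding gene end, on the hg38 build and with genes from RefSeq. Such a position is called deep below, and a gene of 300 kb or longer is called a long gene. The rule used position only, so widths, densities and the differences between genes were not fixed by it.

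The peaks came from 1 CUT&Tag library made with an antibody against LDB1 in NB4 cells without treatment. NB4 is a human cell line from acute promyelocytic leukaemia and carries the PML::RARA fusion. In CUT&Tag an antibody tethers the Tn5 transposase to chromatin, which cuts and tags nearby DNA for sequencing. The other library of the series used IgG in the same untreated cells and was not analysed here. Neither antibody had a replicate, the depth is unknown, and each peak carried a position and a width and no height. The intervals below are therefore exact 95% intervals that cover counting error only, and since neighbouring peaks are not independent they are too narrow. No test between samples was possible, and the identity of the cells was not checked against marker expression.

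LDB1 is an adaptor protein that binds no DNA by itself. It dimerises and is brought to DNA by partners such as GATA factors, TAL1 with its E-protein partner, and LMO2, and it holds distant enhancers and promoters together. Most human genes of this size are long because of their introns, which can hold enhancers and further transcription starts. Many of the longest ones encode proteins of synapses and neural adhesion.

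The 771 long genes held 398 Mb of deep sequence, and their median length was 450 kb. LDB1 peaks were sparse there. The density was 7.71 deep peaks per Mb in long genes (7.44 to 7.99), against 17.8 per Mb (17.4 to 18.2) in the deep sequence of shorter protein-coding genes and 9.28 per Mb (9.11 to 9.45) in deep sequence outside genes. Long genes thus held 0.433 times the density of shorter genes (0.415 to 0.452). Against the sequence outside genes the ratio was 0.831 (0.798 to 0.865), but it turned to 1.06 (1.01 to 1.12) when the ends of genes of every biotype were kept 20 kb away, and it also differed by region, with 1.32 (1.22 to 1.44) in the outer 5 Mb of chromosomes and 0.719 (0.687 to 0.754) elsewhere. No overall direction is drawn from it.

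Pooled over the genes of a length class, density was lower in the longer classes. It was 23.9 deep peaks per Mb in genes of 40 to 100 kb, 21.4 from 100 to 150 kb, 15.8 from 150 to 200 kb and 11.8 from 200 to 300 kb. Within the long genes it was 10.1 from 300 to 400 kb (9.42 to 10.8), 9.99 from 400 to 500 kb (9.25 to 10.8), 8.63 from 500 to 750 kb (8.04 to 9.25) and 4.34 from 1000 kb upward (3.92 to 4.78). Gene by gene the relation was weak among the 771 long genes, with a rank correlation of density with deep length of -0.0701, and peak-rich genes weigh heavily in the class densities. The 300 kb limit marked no step. Genes of 300 to 320 kb had a median of 1 deep peak (77 genes), and genes of 280 to 300 kb also had a median of 1 (93 genes). Likewise 45 peaks lay 20 to 22 kb from an end inside long genes, with a median width of 514 bp, and 46 lay 18 to 20 kb from an end, with a median width of 537 bp.

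Deep positions in a long gene can lie farther from any gene end than those in a shorter one, so densities were also compared at equal distances. At 20 to 30 kb from an end, long genes held 13.6 peaks per Mb, against 23.1 in shorter genes and 18.9 outside genes. The ratio to shorter genes was 0.587 (0.511 to 0.671) there, 0.651 (0.597 to 0.709) at 50 to 100 kb and 0.786 (0.683 to 0.907) at 100 to 200 kb. At all 4 distances compared from 20 to 200 kb the interval of this ratio lay below 1. Next to the ends the picture differed. Within 1 kb of an end, long genes held 127 peaks per Mb (112 to 143) and shorter genes 135 (131 to 139), with overlapping intervals. From 2 to 5 kb long genes held 20.7 and shorter genes 45.3. These distances take 5′ and 3′ ends together and include ends of other protein-coding genes that lie inside a gene.

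**Figure D1:**
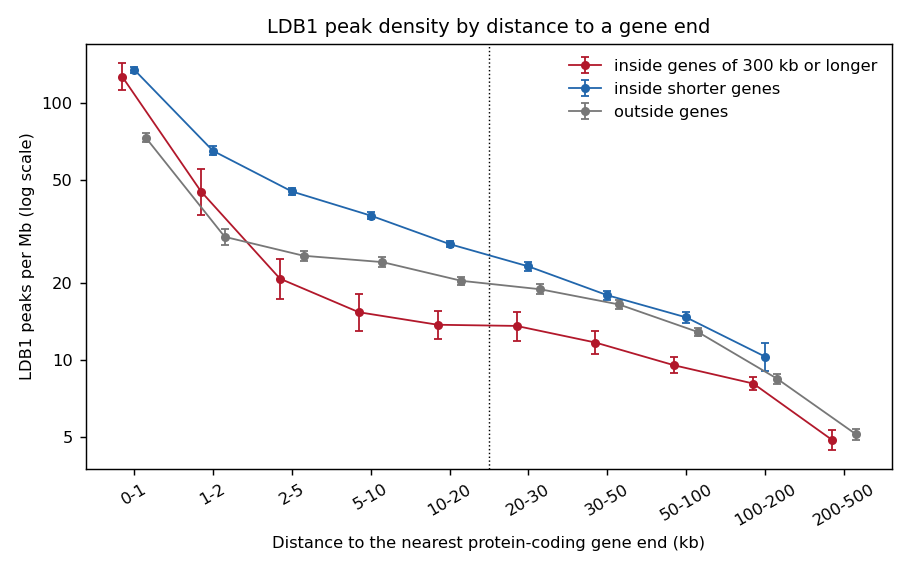
LDB1 peaks per Mb (log scale) by distance to the nearest protein-coding gene end in kb, for sequence inside genes of 300 kb or longer, inside shorter genes and outside genes; bars are exact 95% Poisson intervals and the dotted line marks the 20 kb limit. Long and shorter genes start level in the first 1 kb, at 127 and 135 peaks per Mb, and part after it.

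The deep peaks of long genes were narrower than peaks at gene ends. Their median width was 498 bp (488 to 508), against 520 bp (513 to 530) for deep peaks of shorter genes. For deep peaks outside genes it was 513 bp (507 to 519), an overlapping interval. In the outer 5 Mb of chromosomes the order differed. There the median was 588 bp (559 to 614) in long genes, 585 bp in shorter genes and 535 bp (522 to 553) outside genes. Elsewhere the medians were 476, 505 and 507 bp. Peaks within 1 kb of a gene end had a median of 635 bp (626 to 645). A width of 1 kb or more was reached by 375 of the 3068 members (12.2%) and by 22.9% of the peaks at gene ends. Together the members covered 2.02 Mb, which is 0.507% of the deep sequence of long genes, against 1.2% covered in shorter genes.

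At least 1 deep peak lay in 583 of the 771 long genes, 75.6% (72.4 to 78.6%). Among the 7161 protein-coding genes of any length with deep sequence 40.6% had one, and among the 6390 under 300 kb 36.4%, with less sequence per gene. The share rose with length, to 62 of the 69 genes of 1000 kb or longer, although their density was the lowest. The counts per gene were very uneven. The median was 2 deep peaks and the mean 4.02, the variance was 24 times the mean, and 54 genes held 50% of all gene and peak pairs. The 78 densest genes, with 8.04% of the deep sequence, held 1668 peaks (54.4%).

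Proximity to a chromosome end moved with these counts. Of the 62 genes with 10 or more deep peaks, 24 (38.7%, 26.6 to 51.9%) had their midpoint in the outer 5 Mb of a chromosome, against 3 of the 188 genes with none (1.60%, 0.330 to 4.59%). The density of deep peaks in long genes was 36.6 per Mb in the outer 5 Mb (34.2 to 39.1) and 5.87 per Mb elsewhere (5.63 to 6.12). Shorter genes also differed, with 54.4 per Mb in the outer 5 Mb and 14.9 elsewhere. The ratio of long to shorter genes was 0.672 (0.617 to 0.731) in the outer 5 Mb and 0.393 (0.374 to 0.413) elsewhere. What sets the outer regions apart (copy number, base composition, open chromatin) was not tested.

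The genes with many deep peaks also lay among more neighbours. Genes with 10 or more had a median of 5.78 other protein-coding genes per Mb within the gene and 1 Mb to either side, against 3.48 for genes with none. In the quartile of long genes with the most neighbours (6 per Mb or more) the density was 17.3 deep peaks per Mb, and in the quartile with the fewest (up to 2.41 per Mb) it was 3.70. Without genes of the outer 5 Mb these densities were 11.3 and 3.56 per Mb. Across the 771 genes the rank correlation of density with neighbours was 0.228, so neighbours ordered single genes only loosely. All genes share 1 library.

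**Figure D2:**
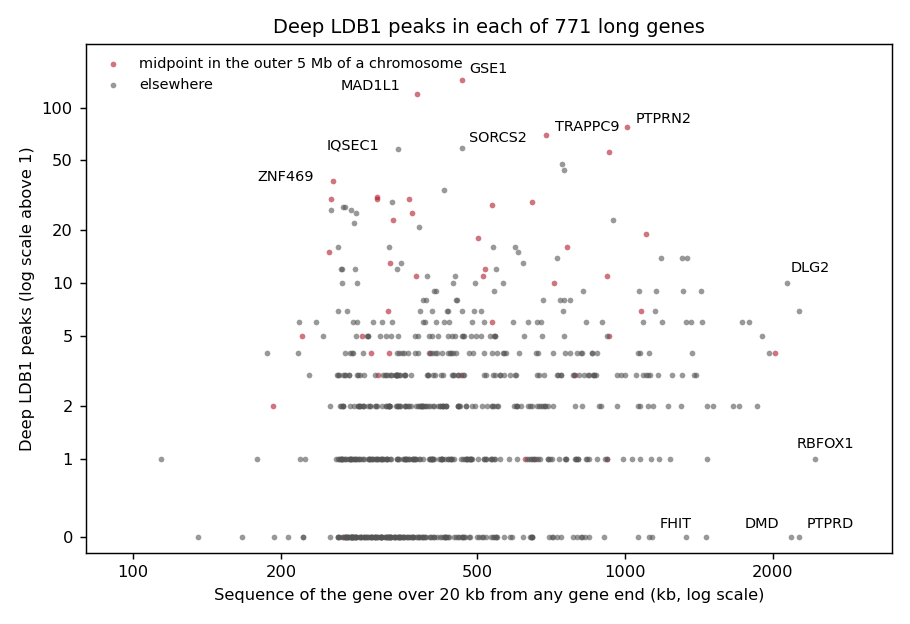
Deep LDB1 peaks (log scale above 1) against deep sequence in kb (log scale) for each of the 771 long genes; each point is a gene, in red where its midpoint lies in the outer 5 Mb of a chromosome. GSE1 and MAD1L1 stand at the top with 143 and 120 peaks, and PTPRD, DMD and FHIT lie at 0 on the right.

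GSE1 and MAD1L1 formed a class of their own. GSE1, which encodes a protein of chromatin corepressor complexes (chromosome 16, 85169512 to 85676200, plus strand), held 143 deep peaks, or 306 per Mb (258 to 361). All of them followed each other at 10 kb or less, so that 453 kb of the gene made up 1 unbroken run. They covered 36.1% of its deep sequence, and the widest was 7073 bp. MAD1L1, which encodes the spindle checkpoint protein MAD1 (chromosome 7, 1815795 to 2232945, minus strand), held 120 deep peaks, or 318 per Mb (264 to 380). A run of 113 of them spanned 342 kb. They covered 52.8% of its deep sequence with a median width of 1054 bp, and the widest member of all, 13369 bp, lay there (chromosome 7, 1852063 to 1865431). The 8 widest members all lay in these 2 genes. Both lie in the outer 5 Mb, and without the pair the density over long genes was 7.07 per Mb in place of 7.71.

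Further genes rich in deep peaks had wider spacing. PTPRN2, which encodes a receptor phosphatase-like protein of secretory granules, held 78 deep peaks, or 77.3 per Mb, with a median spacing of 7.01 kb. TRAPPC9, a subunit gene of a vesicle tethering complex, held 70 (101 per Mb). SORCS2, a sorting receptor gene, held 59 (127 per Mb), and IQSEC1, which encodes an exchange factor for ARF6, held 58 (168 per Mb) with a widest peak of 4089 bp. SORCS2 and IQSEC1 lie outside the outer 5 Mb of their chromosomes. SDK1, an immunoglobulin-family adhesion gene, held 56 (60.4 per Mb), SHANK2, a postsynaptic scaffold gene, held 48 (64.4 per Mb), and ZNF469, a zinc finger gene, held 38 (149 per Mb). RANBP2, a nucleoporin gene that the annotation extends over 1123 kb, held 44, and SH3RF3, which lies within that span, held 29. CUX1, a homeobox factor gene, held 34 (79.4 per Mb) and HDAC4, a histone deacetylase gene, held 31 (98.9 per Mb).

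Some of the very longest genes were nearly empty, but as a class they were not. The 69 genes of 1000 kb or longer had a median of 3 deep peaks. RBFOX1, which encodes a neuronal splicing factor, has the most deep sequence of all (2434 kb) and held 1 deep peak. CNTNAP2, a neurexin-family adhesion gene, held 7 in 2264 kb (3.09 per Mb). DLG2, a synaptic scaffold gene, held 10 in 2133 kb (4.69 per Mb), widely scattered with a median spacing of 146 kb. The median density of all long genes was 3.53 per Mb. PTPRD, a receptor tyrosine phosphatase gene, held none in 2259 kb. DMD, the dystrophin gene, held none in 2180 kb, and FHIT, a gene at a common fragile site, none in 1464 kb. A count of 0 allows up to 1.33 peaks per Mb in PTPRD, 1.38 in DMD and 2.05 in FHIT. The 10 genes with the most deep sequence and no member also included IL1RAPL1, CDH13, PTPRT, CDH12, EPHA6, NEGR1 and NPAS3, which have 829 to 1329 kb of deep sequence each and most of which are known from the nervous system. PTPRD, DMD, IL1RAPL1, PTPRT, CDH12 and NEGR1 were not overlapped by a peak anywhere, as was so for 83 of the 771 long genes. FHIT, CDH13, EPHA6 and NPAS3 were each overlapped by 1 peak, at or within 20 kb of an end. PTPRD lay in a stretch of 6.33 Mb without any peak, and DMD in one of 2.29 Mb, so these stretches ran past the ends of the genes.

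**Figure D3:**
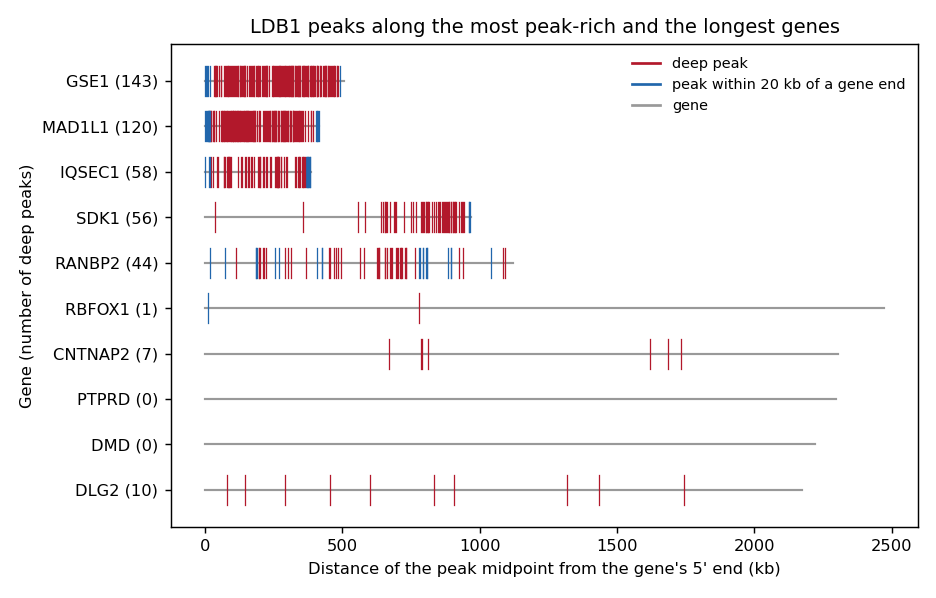
Positions of LDB1 peaks along 10 long genes of known strand, drawn to scale in kb from the 5′ end: the 5 with the most deep peaks, above the 5 with the most deep sequence; red ticks are deep peaks, blue ticks are peaks within 20 kb of a gene end. GSE1 and MAD1L1 are filled along their length, SDK1 is filled on the 3′ side of its midpoint (54 of 56 deep peaks), and PTPRD and DMD are empty.

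Peaks gathered in long runs in some genes, while many others stood alone. When members 10 kb or less apart were joined, the 3068 peaks made 1930 runs, of which 1538 held a single peak. These single peaks were 50.1% of the members. Runs of 5 or more numbered 60, lay in 31 genes and took in 726 peaks (23.7%). After the runs in GSE1 and MAD1L1, the longest held 23 peaks over 87.3 kb in SDK1, 17 over 75.8 kb in TRAPPC9 and 16 over 77.3 kb in HDAC4. At the other extreme 429 members (14.0%) had no other peak of any kind within 100 kb.

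Position along the gene was compared in the 623 long genes whose strand is in the RefSeq promoter table. The density was 6.85 deep peaks per Mb in the first of 10 equal bins from the 5′ end (5.82 to 8.02), 6.58 in bin 5 and 9.61 in the last bin (8.37 to 11). The 5′ side of the midpoint held 0.863 times the density of the 3′ side (0.794 to 0.937). Without the genes of the outer 5 Mb the ratio of the sides was 0.958 (0.868 to 1.06), and in the 581 genes with under 10 deep peaks it was 1.04 (0.931 to 1.17). The excess of the 3′ side as a whole thus rested on the peak-rich genes. The last bin was still the highest without the genes of the outer 5 Mb, at 7.12 per Mb (6.03 to 8.35). Bin 5 held 5.45 (4.68 to 6.30) there, an overlapping interval. SDK1 alone held 54 deep peaks on the 3′ side and 2 on the 5′ side. In the genes with under 10 deep peaks the density was 5.12 per Mb (4.20 to 6.18) in the first bin and 5.51 (4.55 to 6.62) in the last, against 4.14 (3.47 to 4.90) in bin 5, whose interval overlaps both, and 3.48 (2.87 to 4.18) in bin 6. At 20 to 30 kb from the 5′ end the density was 6.78 per Mb (4.87 to 9.20) and at 20 to 30 kb from the 3′ end 14.0 (11.2 to 17.4). Farther in the gap closed, with 9.31 from the 5′ end and 9.29 from the 3′ end at 30 to 50 kb, and 7.63 and 7.96 at 150 to 280 kb.

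**Figure D4:**
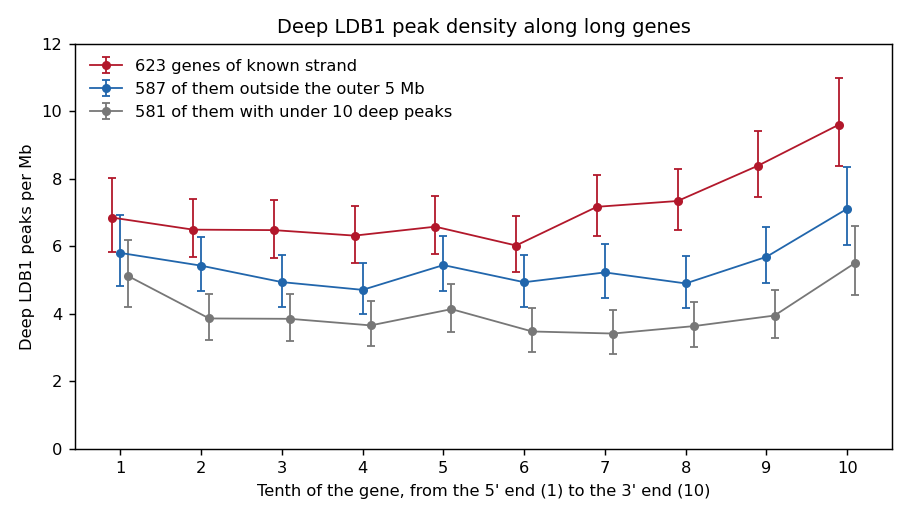
Deep LDB1 peaks per Mb of deep sequence in each of 10 equal bins of the gene, from the 5′ end (1) to the 3′ end (10), for 623 long genes of known strand, for the 587 of them outside the outer 5 Mb and for the 581 with under 10 deep peaks; bars are exact 95% Poisson intervals. The last bin is the highest in all curves, at 9.61 over all genes, 7.12 outside the outer 5 Mb and 5.51 in genes with under 10 deep peaks. The lower curves are nearly flat between the outer bins.

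Peaks at the 5′ end had overlapping intervals between genes with many deep peaks and genes with none, and peaks at the 3′ end did not. A peak midpoint lay within 1 kb of the 5′ end in 16 of 42 genes with 10 or more deep peaks (38.1%, 23.6 to 54.4%), 93 of 190 with 3 to 9 (48.9%), 93 of 239 with 1 or 2 (38.9%) and 52 of 152 with none (34.2%, 26.7 to 42.3%). The density inside was 7.52 deep peaks per Mb (7.06 to 8) in genes with a peak at the 5′ end and 6.72 (6.36 to 7.09) in genes without one. A peak at the 3′ end was found in 7 of the 42 genes with 10 or more deep peaks (16.7%, 6.97 to 31.4%) and in 3 of the 152 with none (1.97%, 0.409 to 5.66%). It was found in 6 of 190 with 3 to 9, in 7 of 239 with 1 or 2, and in 23 of all 623 (3.69%). Peak-rich genes hold more peaks at any place, and no share for windows elsewhere in these genes was computed. The difference is therefore not read as a trait of the 3′ end.

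Deep peaks were denser next to the transcription starts that lie within long genes than away from them. The promoter table gives windows of 300 bases, from 250 before to 50 after a start, and overlapping windows were joined. Deep sequence held 561 such starts of the long gene itself, in 278 genes, and a further 741 at which only other genes begin. These other genes include non-coding ones and also protein-coding ones such as FILIP1L, LRRTM3 and LRRC53. Within 0.5 kb of a start of the gene itself the density was 109 deep peaks per Mb (83.2 to 140), against 7.46 (7.19 to 7.74) more than 20 kb away from one. At starts of other genes it was 53.8 within 0.5 kb (38.6 to 73.0) and 7.08 beyond 20 kb. From 5 to 20 kb it was still 14.4 (12.8 to 16.2) around starts of other genes, against 8.02 (6.57 to 9.70) around starts of the gene itself. The higher density thus reached farther around starts of other genes. These sites are few, however. Of the 3068 members, 61 lay over a start of the gene itself (1.99%) and 39 over a start of another gene only (1.27%). This leaves 2968 members (96.7%) over neither.

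Peaks over internal starts of the gene itself were wide. Those over a start of the gene itself had a median width of 954 bp (761 to 1158), and those over no start a median of 493 bp (483 to 504). Any overlap with a window counted, so a wider peak was more likely to be picked. Part of this difference is therefore set by the rule of overlap. The widest over such a start was the 4586 bp peak in GSE1, followed by FGF12 (2248 bp), DPP6 (2228 bp), CNIH3 (2181 bp), NAV2 (2150 bp) and DPP10 (2126 bp). The genes named in this and the next 3 paragraphs for a peak at a start were chosen after their values were seen, except GSE1, SDK1, PRKCH, RBFOX1, PTPRD and DMD. FGF12 encodes an intracellular fibroblast growth factor homologue, DPP6 and DPP10 subunits of potassium channels, CNIH3 a protein that escorts glutamate receptors, and NAV2 a neuron navigator. PRKCH, a protein kinase C gene, had a single deep peak, of 1739 bp, and RBFOX1 a single one of 1158 bp. Each lay over a start of its own gene.

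The sequences at these starts set the ones with a peak apart. A peak overlapped 69 of the 561 starts of the gene itself (12.3%, 9.70 to 15.3%). Windows with a peak had a median G+C content of 68.7% and 27 CG dinucleotides, and windows without one 46.7% and 5. The median over all 35116 windows of the table was 58.7% and 14. The windows of the 4 widest such peaks are printed below to show this, with those of PTPRD and DMD, the 2 genes with the most deep sequence and no member that have such a start, each at its start of lowest coordinate. They are from RefSeq on GRCh38.p14, run 5′ to 3′ on the strand of the gene, and have CG dinucleotides in capitals.
GSE1, chr16:85613072-85613371, plus strand, under a peak: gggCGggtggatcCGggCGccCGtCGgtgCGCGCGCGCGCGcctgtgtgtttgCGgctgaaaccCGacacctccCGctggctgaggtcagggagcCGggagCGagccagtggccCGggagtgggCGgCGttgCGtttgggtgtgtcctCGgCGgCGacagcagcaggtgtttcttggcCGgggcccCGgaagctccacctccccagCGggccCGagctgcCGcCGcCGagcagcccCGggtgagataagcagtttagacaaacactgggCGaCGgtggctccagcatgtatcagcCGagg
FGF12, chr3:192409548-192409847, minus strand, under a peak: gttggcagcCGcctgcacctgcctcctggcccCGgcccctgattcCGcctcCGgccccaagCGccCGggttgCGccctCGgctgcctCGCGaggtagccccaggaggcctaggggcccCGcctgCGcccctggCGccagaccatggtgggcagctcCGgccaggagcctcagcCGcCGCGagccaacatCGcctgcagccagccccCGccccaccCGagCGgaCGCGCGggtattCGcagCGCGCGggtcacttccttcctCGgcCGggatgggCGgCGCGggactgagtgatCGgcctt
DPP6, chr7:153887084-153887383, plus strand, under a peak: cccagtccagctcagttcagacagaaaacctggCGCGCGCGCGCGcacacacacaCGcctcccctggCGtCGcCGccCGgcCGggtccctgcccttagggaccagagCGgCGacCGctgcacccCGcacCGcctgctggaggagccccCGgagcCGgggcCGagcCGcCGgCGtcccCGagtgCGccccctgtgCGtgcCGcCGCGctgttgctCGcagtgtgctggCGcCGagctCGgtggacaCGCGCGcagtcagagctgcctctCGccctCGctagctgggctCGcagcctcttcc
CNIH3, chr1:224616067-224616366, plus strand, under a peak: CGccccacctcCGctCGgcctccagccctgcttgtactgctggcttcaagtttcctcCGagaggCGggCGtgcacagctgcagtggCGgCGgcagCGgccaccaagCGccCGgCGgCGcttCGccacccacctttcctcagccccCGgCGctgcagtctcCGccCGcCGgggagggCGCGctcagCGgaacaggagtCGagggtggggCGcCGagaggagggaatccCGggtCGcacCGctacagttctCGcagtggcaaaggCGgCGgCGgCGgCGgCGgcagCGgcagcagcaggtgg
PTPRD, chr9:8733897-8734196, minus strand, no peak in the gene: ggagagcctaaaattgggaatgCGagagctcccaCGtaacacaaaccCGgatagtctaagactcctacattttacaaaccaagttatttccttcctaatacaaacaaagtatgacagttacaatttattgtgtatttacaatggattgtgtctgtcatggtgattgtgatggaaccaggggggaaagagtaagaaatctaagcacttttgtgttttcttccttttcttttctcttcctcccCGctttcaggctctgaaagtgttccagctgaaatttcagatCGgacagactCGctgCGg
DMD, chrX:31508247-31508546, minus strand, no peak in the gene: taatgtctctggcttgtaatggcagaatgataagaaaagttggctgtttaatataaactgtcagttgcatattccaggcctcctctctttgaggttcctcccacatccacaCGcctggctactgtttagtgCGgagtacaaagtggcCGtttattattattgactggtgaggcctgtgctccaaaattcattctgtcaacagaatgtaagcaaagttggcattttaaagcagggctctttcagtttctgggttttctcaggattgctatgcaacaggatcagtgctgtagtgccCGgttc

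The windows of GSE1, FGF12, DPP6 and CNIH3 hold 34, 34, 39 and 36 CG dinucleotides and 71.0, 75.7, 74.7 and 73.7% G+C, while those of PTPRD and DMD hold 7 and 4, with 41.7 and 44.0% G+C. The share of starts under a peak followed the same order over all 561. It was 0 of 141 in the quartile lowest in G+C (up to 2.58%), 2 of 140 in the next, 11 of 140 (7.86%) in the third and 56 of 140 (40%, 31.8 to 48.6%) in the quartile of 59.0% G+C or more. The outer 5′ ends of long genes followed it as well. Of the 468 with a window in the table, 160 (34.2%) were under a peak. At 59.0% G+C or more the share was 145 of 331 (43.8%, 38.4 to 49.3%), with an interval that overlaps that of internal starts. From 48.0 to 59.0% it was 14 of 77 (18.2%, 10.3 to 28.6%). This was above the 7.86% of internal starts (3.99 to 13.6%), with overlapping intervals. From 41.7 to 48.0% it was 1 of 34, and below 41.7% it was 0 of 26. Whether base composition acts on the assay, on open chromatin or on LDB1 was not tested.

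**Figure D5:**
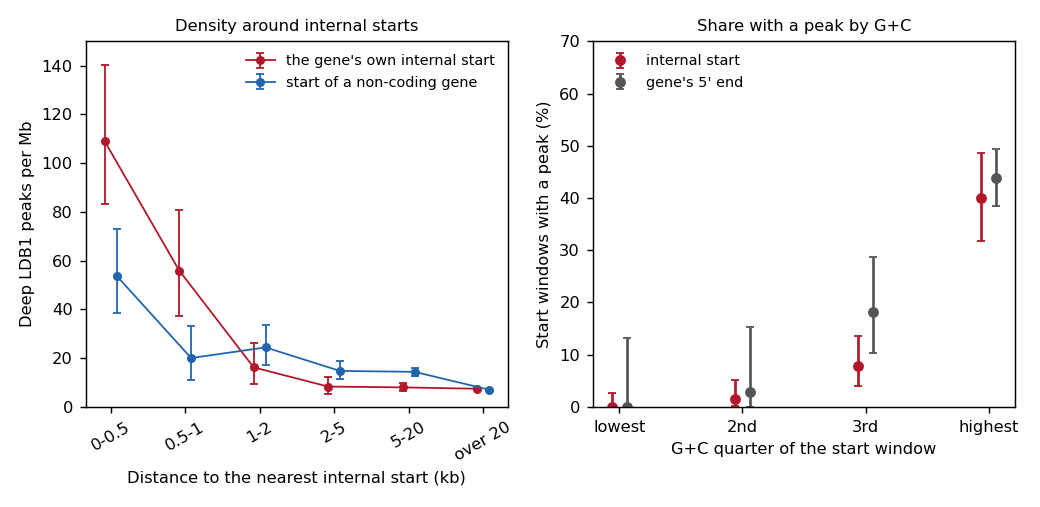
Left, deep LDB1 peaks per Mb by distance in kb to the nearest start, within deep sequence, of the long gene itself or of another gene. The curve labelled as non-coding holds all starts of other genes, some of them protein-coding. Right, the percentage of start windows with a peak, by quartile of G+C content, for internal starts and for the 5′ ends of long genes. Bars are exact 95% intervals; density falls from 109 to 7.46 per Mb with distance from a start of the gene itself, and the share with a peak climbs to 40% in the highest quartile.

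Letters that LDB1's partners and RUNX factors are known to recognise were counted in the windows. Where overlapping windows had been joined, only the window of lowest coordinate was searched. A motif elsewhere in such a joined start was therefore missed, while a peak anywhere over it counted. GATAA, the core of GATA sites, was present on either strand in 9 of 69 starts with a peak (13%), in 177 of 492 without (36.0%) and in 22.7% of all windows of the table. CANNTG, the E-box of TAL1 and E-proteins, was present in 46 of 69 (66.7%), in 370 of 492 (75.2%) and in 68.7% of all windows. TGTGGT, a RUNX core, was present in 11 of 69 (15.9%), in 68 of 492 (13.8%) and in 13.1% of all windows. CANNTG reads the same on both strands, and the 3 motifs were counted separately. G+C content differed between the sets as given above, and its part in these shares was not tested. The sequences of the other 96.7% of members, away from any start, were not analysed here.

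Peaks at internal starts were also found in genes with no peak midpoint within 1 kb of the outer 5′ end. Here the 5′ end was judged by that distance and an internal start by overlap with its window, so the rules are unlike. Of the 278 long genes with an internal start of their own, 58 had a peak over one. These were 19 of 100 genes with a peak at the 5′ end (19.0%, 11.8 to 28.1%) and 39 of 178 without (21.9%, 16.1 to 28.7%), and the intervals overlap. GSE1, FGF12, DPP6, DPP10, PRKCH and RBFOX1 were among the 39, although GSE1 had a 2582 bp peak centred 1.99 kb from its 5′ end, and CNIH3, NAV2 and SDK1 among the 19. Which of these starts NB4 cells use was not measured.

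MicroRNA genes add 3 more annotated sites under members, of 134 hairpins in the deep sequence of long genes. MIR12128 and MIR5093 lie in GSE1, under peaks of 1558 and 1581 bp, and MIR4655 lies in MAD1L1, under a peak of 2384 bp. Both genes are densely covered by peaks, so overlap there says little about microRNA genes. Over all long genes, members covered 0.507% of the deep sequence. Their mature sequences, with the seed (bases 2 to 8) in capitals, show that no seed is shared.
hsa-miR-12128: uUCAGGGAuggcgcaugaagaggaga
hsa-miR-5093: aGGAAAUGaggcuggcuaggagc
hsa-miR-4655-5p: cACCGGGGauggcagagggucg
hsa-miR-4655-3p: aCCCUCGUcagguccccgggg

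Of 30 listed blood factors and cofactors 15 are long genes, and 9 of these (60%) held a deep peak, with a median of 1, against 75.6% and a median of 2 for all long genes. CUX1 (34 peaks) and PRDM16, a methyltransferase-family factor gene (30 peaks), held 64 of the 79 peaks, and lay among 17.4 (CUX1) and 11.4 (PRDM16) other genes per Mb. SSBP2, which encodes a partner of LDB1, held 5, BACH2 and NFIB 3 each, and EBF1, NFIA, TCF4 and ZBTB20 1 each. FOXP1, MECOM, RARB, RORA, TCF12 and LDB2, the last being the paralogue of LDB1, held none. Among signalling genes of blood cells 16 of 21 long ones (76.2%) held a deep peak, with a median of 2. RPS6KA2, which encodes a ribosomal S6 kinase, held 25 and RPTOR, a subunit gene of the mTOR complex, 23, while PRKCB and DOCK1 held 3 each and DOCK2, VAV3, PLCB1, PDE4B and INPP4B none.

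Of 11 long chromatin and RNA regulators 10 held a deep peak, with a median of 7. The members were GSE1 (143), HDAC4 (31), RBFOX3 (28), SMYD3 (10), AUTS2 (9), MSI2 (7), CELF2 (6), HDAC9 (4), ARID1B (2) and RBFOX1 (1), and KMT2C held none. All 30 synapse and neural adhesion genes listed are long, 25 of them (83.3%) held a deep peak, and the median was 2. Their median density was 1.92 deep peaks per Mb, against 3.53 for all long genes, and PTPRN2 alone held 78 of their 157 peaks. Most of them have over 1000 kb of deep sequence. Pooled, with PTPRN2 included, they held 4.34 per Mb (3.69 to 5.08), and all genes of 1000 kb or longer also held 4.34 (3.92 to 4.78). Most of the listed genes, PTPRN2 among them, belong to that length class, so these values are not independent. Neither was computed without PTPRN2, so no likeness is drawn from them. The 20 genes of common fragile sites held a deep peak in 16 cases (80%), with a median of 2.5. Their median density was 2.01 per Mb and their pooled density 2.74 per Mb (2.17 to 3.42). Among them WWOX, an oxidoreductase gene, had 4 in 1063 kb. The lists overlap, and they were chosen with results of these data known, so they are descriptions.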

How the data were processed

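CUT&Tag was done on untreated NB4 cells with an LDB1 antibody in 1 library and IgG in another, per the labels. The deposited LDB1 file gave the position and width in bp of 53742 peaks; length equalled end minus start plus 1 in all of them, so coordinates count from 1. The submitters' processing notes name hg38, Bowtie2 2.4.1 and MACS2 2.0.10. How peaks were thresholded, how duplicates were handled and whether IgG served as control: not given in the sources used here. Depth is unknown, and peak number and width both rise with it.

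Genes came from RefSeq (GRCh38.p14; 19974 that code for protein on the chromosomes used), and strands, starts and sequences from its promoter and miRNA tables; 623 of the 771 long genes were in the promoter table, and in 3018 overlapping pairs of windows on opposite strands the sequences matched as reverse complements. Deep sequence was measured as the union over genes, a peak was placed by its midpoint, and stretches of 1 Mb or more with neither gene nor peak were left out of the sequence outside genes. A chromosome was taken to end at its last gene or peak. Densities carry exact Poisson intervals, shares Clopper-Pearson intervals, ratios conditional binomial intervals, and medians order-statistic intervals, all at 95%; a count of 0 was bounded by 3 counts. The script was tested on simulated peaks. The genes named are those with the most members, density, deep sequence, width, runs or peak-free sequence, and the lists; members and lists were chosen with earlier results of these data known. Python 3.11.15 and scipy 1.17.1 were used.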

Additional observations from a re-analysis of the deposited data

How the results depend on the processing

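The direction against shorter genes held under every alternative run, and the direction against the sequence outside genes did not. Alternatives marked "added" were chosen after seeing the data. They could not have turned the direction against shorter genes, so they say nothing on whether it holds. They took peak-rich genes out of the long genes only, or changed only the sequence outside genes. With the ends of genes of every biotype there were 1938 deep peaks, at 6.58 per Mb, 0.404 times the density of shorter genes and 1.06 times that outside genes, and 65.2% of long genes held one. A length minimum of 500 kb gave 1558 peaks, 6.36 per Mb, ratios of 0.409 and 0.685, and 85.0% of genes; a minimum of 200 kb gave 8.66 per Mb, a ratio to outside of 0.933 and 69.7%. Over 50 kb from an end the values were 7.03 per Mb, ratios of 0.504 and 0.964, and 68.9%; over 10 kb the ratios were 0.382 and 0.768. The widest 50% of all peaks left 1295 members, 3.26 per Mb, ratios of 0.395 and 0.794, a median width of 764 bp, 63.8% of peaks in the densest 10% of genes and 47.7% of genes with one. The widest 25% left 571, 1.44 per Mb, a ratio to shorter genes of 0.369, 1116 bp, 77.6% and 25.3%. Without the outer 5 Mb the values were 5.87 per Mb, 0.393 and 0.719, 476 bp and 44.5%. Peaks 10 kb or less apart, joined, gave 1908 peaks, 4.8 per Mb, a ratio to shorter genes of 0.545, 535.5 bp and 34.9%. Without GSE1 and MAD1L1 (added) they were 7.07 per Mb, 0.397 and 0.761, 481 bp and 50.8%. Without the 24 genes of the outer 5 Mb with 10 or more deep peaks (added) they were 5.72 per Mb, 0.321 and 0.616, 473 bp and 42.8%. With no empty stretch left out (added) the ratio to outside was 0.945. The causes were not tested. No paired analysis was possible because each antibody had 1 library and no value of the IgG library was used. Without depth or replicates, a missing peak cannot be told apart from one below the caller's threshold.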

Other observations

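The density of deep peaks in long genes differed between chromosomes. It was highest on chromosome 19 (29.9 per Mb, 20 to 43), which has only 3 long genes, and then on chromosome 16 (20.1, 17.6 to 22.9), chromosome 7 (15.7, 14.3 to 17.1) and chromosome 17 (12.2, 9.98 to 14.7). It was lowest on chromosome 21 (1.72, 0.557 to 4), chromosome X (2.09, 1.45 to 2.90) and chromosome 15 (2.21, 1.41 to 3.29), where 13 of 25 long genes held none. Deep sequence of shorter genes held 28.6 peaks per Mb on chromosome 21, 7.01 on chromosome X and 7.64 on chromosome 15. Without GSE1 the density on chromosome 16 was 7.59 per Mb (6.03 to 9.44), so its place rests on that gene. Chromosome 7 had 12 per Mb (10.8 to 13.3) without MAD1L1 and 9.84 (8.75 to 11) without MAD1L1 and PTPRN2; these values were added after seeing the data. On each of the 23 chromosomes the density in long genes was below that in shorter genes, and the nearest to it was chromosome 18, with 8.48 and 9.20 per Mb.

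The longest stretch of deep sequence without a peak after those of PTPRD and DMD was 1.67 Mb in RBFOX1, on the 3′ side of its only deep peak. MACROD2 followed with 1.57 Mb. Long non-coding RNA genes nested in deep sequence held 8.78 peaks per Mb (7.68 to 9.98), and the rest of the deep sequence 7.64 (7.36 to 7.92), with overlapping intervals. Nested genes of other biotypes, in 1.16 Mb, held 24.1 peaks per Mb (16 to 34.9), and the rest 7.66 (7.39 to 7.94).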
